A study of Mus musculus with 6 samples.

Results

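The MYC, MAX and MXD network is a family of transcription factors that bind DNA in pairs and compete for the same partner. It was described through 9 genes, Myc, Mycn, Max, Mxd1, Mxd3, Mxd4, Mxi1, Mnt and Mlx, out of 18193 genes on the arrays. A probe set was taken when the platform annotation gave it exactly 1 gene symbol and that symbol was one of these, which gave 21 of 45037 probe sets. None of the 9 was chosen by its measured values, although earlier results of these data were known when the set was drawn up.

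The samples were 3 arrays of bone marrow cells from mice labelled ASXL1-MT-transplanted, which had a disease resembling myelodysplastic syndrome, and 3 arrays from mice labelled as mock transplants and normal controls. Both groups are bone marrow transplant recipients by their titles, and the cells are labelled as myeloid. T, B and red cell lineages had been removed magnetically with antibodies to CD3e, B220 and TER-119, a step that the sample label itself gives for mock alone. ASXL1 is a chromatin regulator of the Polycomb system that is often mutated in myeloid malignancies. The strain, the age, the form of the mutant and its promoter are not given in the sources used here, and neither is whether the 3 samples of a group were separate mice or pools. The p-values thus rest on the spread among these arrays alone, and part of it may be technical.

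MYC and its relative MYCN bind DNA together with MAX at the E-box and switch on genes of growth and division. MXD1, MXD3, MXD4, MXI1 and MNT also pair with MAX at E-boxes, but they recruit SIN3 and histone deacetylases and repress the same kind of genes. MLX is a MAX-like protein that pairs with some MXD proteins, with MNT and with the glucose-sensing factors MLXIP and MLXIPL. In the marrow MYC is high in dividing progenitors, and MXD1 rises as mouse granulocyte precursors leave the cell cycle.

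Values are centred log signals, taken as log2, in which the median of a probe set over the 6 arrays was set to 0 before deposit. They show which arrays were high or low for a gene but not how strongly the gene was expressed, so the members cannot be ranked by level. With 6 arrays this centring also places the middle pair at equal distances above and below 0, which is why the lowest array of one group and the highest of the other can mirror each other. A change is given as the mean of the ASXL1-MT arrays less that of the mock arrays, a fold is 2 raised to its size, and both assume base 2. The median change of all genes was 0.11. A change passed when its adjusted p in the limma fit over all genes, or over all probe sets, was under 0.05. A probe set is called bright when its 3 highest arrays lie on the rounding step of logs of 8 and above, equal to signals of at least 256 if the base is 2. Of the 21 probe sets 14 were bright, against 38.3% of all probe sets. Arrays outside those 3 may be dimmer.

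The E-box, CACGTG, is the sequence that the pairs of this network bind, and the promoters of 4 members themselves hold one. The windows searched were the RefSeq promoters of build GRCm38.p6, from 250 bases before to 50 after each start. Of the 9 genes 8 matched, with 10 windows because Mxi1 has 3. Myc was the gene without a window, so its promoter was not searched. An E-box was found once each in the windows of Max, Mxd4, Mnt and Mlx, and 7.15% of all 32851 windows hold one. The 30 bases around each are shown 5′ to 3′ on the gene's strand, with the E-box in capitals, because they show the motif of the network in promoters of its own members, and a match in letters does not show binding.
Max, chr12:76962234-76962263, minus strand: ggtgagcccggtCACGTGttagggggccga
Mxd4, chr5:34187912-34187941, minus strand: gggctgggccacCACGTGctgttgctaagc
Mnt, chr11:74830789-74830818, plus strand: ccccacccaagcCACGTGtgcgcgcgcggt
Mlx, chr11:101087238-101087267, plus strand: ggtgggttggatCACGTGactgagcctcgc
Of these 4 genes Max changed between the groups and the other 3 did not pass, so a match went with both outcomes.

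Of the 9 genes, 2 were higher in ASXL1-MT marrow, Myc and Mxd3, and 2 were lower, Mxd1 and Max. Myc was higher by 5.38-fold and Mxd3 by 1.99-fold, while Mxd1 was lower by 6.61-fold and Max by 2.54-fold. The other 5 genes, Mycn, Mxd4, Mxi1, Mnt and Mlx, did not pass. In bulk marrow, fewer cells of a type and less RNA per cell cannot be told apart. Over all genes, 6.63% passed as higher and 4.75% as lower, 11.4% in all. The arrays of the groups did not overlap for 6 of the 9 genes, 2 higher and 4 lower, against 37.9% of all genes (23.5% higher and 14.4% lower). With no adjustment 6 of 9 had p under 0.05, against 29.1% of all genes.

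Among probe sets, 5 of 21 passed, 2 higher and 3 lower, against 8.1% of all probe sets (4.73% higher and 3.37% lower), and all 5 were bright. The groups did not overlap in 16 of 21, 7 higher and 9 lower, against 35.4% of all probe sets (21.7% and 13.7%), and 12 had an unadjusted p under 0.05, against 26.3%. The plot of the 9 genes by array shows these groups of points.

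**Figure D1:**
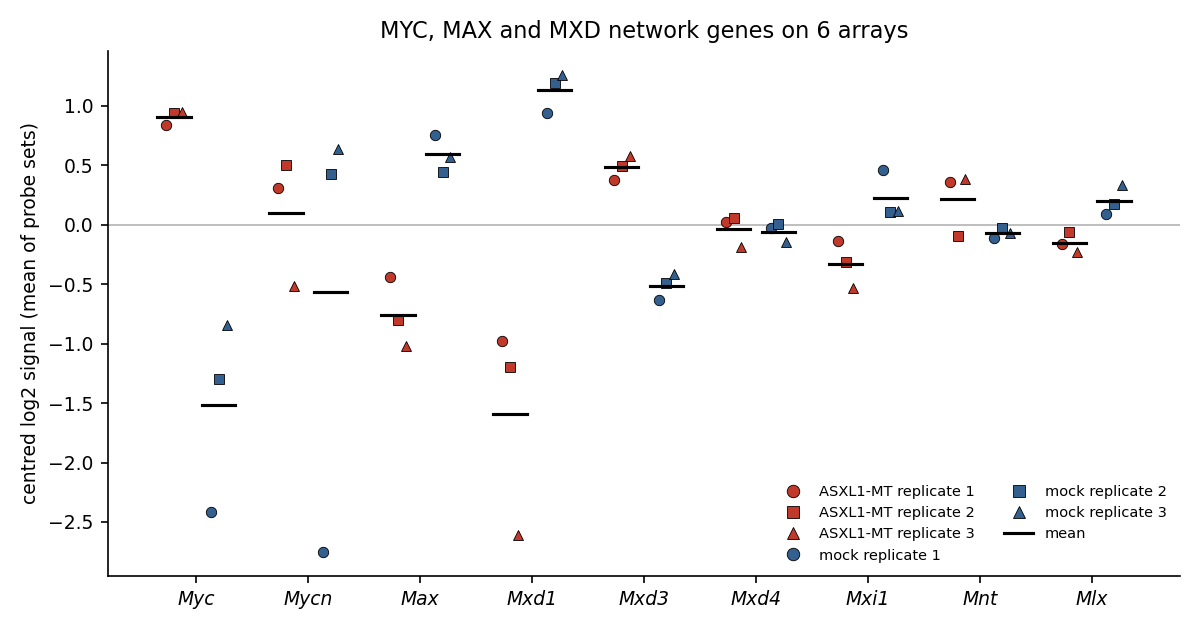
Centred log2 signal of the 9 network genes, each the mean of its probe sets, with ASXL1-MT arrays in red to the left and mock arrays in blue to the right of each gene. Marker shapes give the replicate number, black bars are group means over 3 arrays, and Myc, Mxd3, Mxd1 and Max are the genes past the threshold.

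Myc, the activator, is represented by a single probe set, 1424942_a_at, which was bright by its 3 highest arrays, those of ASXL1-MT, while the mock arrays may be dimmer. Its values were 0.84, 0.94 and 0.95 on the ASXL1-MT arrays, against -2.41, -1.30 and -0.84 on the mock arrays. The ASXL1-MT arrays were close together (mean 0.91 ± 0.06, SD, n = 3) and all above the mock arrays, which were spread widely (mean -1.52 ± 0.81, SD, n = 3). The log2 change was 2.43 (SE 0.42, adjusted p = 0.0269 by limma), which placed Myc at the 98.8 percentile of changes over all genes. Mock replicate 1 was the lowest Myc array, and without it the change was 1.98 (adjusted p = 0.0324). The call was also held without mock replicate 3 (adjusted p = 0.0468), and it was lost without any other single array, with adjusted p from 0.0709 to 0.0983.

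Mycn encodes the MYC relative best known from embryonic and neural tissue, and its 3 probe sets disagreed. Probe set 1417155_at was 0.53, 0.52 and 0.38 on the ASXL1-MT arrays, against -1.81, -0.42 and -0.38 on the mock arrays, a change of 1.35 that did not pass (SE 0.43, adjusted p = 0.125). Its groups did not overlap, and mock replicate 1 was again the lowest array. Probe set 1425923_at was 0.19, -0.19 and -0.20 on the ASXL1-MT arrays, against -5.55, 1.90 and 1.57 on the mock arrays. Mock replicate 1 thus lay far below every other array, and the other mock arrays lay above all 3 ASXL1-MT arrays. Its change was 0.63 over all arrays and -1.80 without mock replicate 1 (adjusted p = 0.0538), so that 1 array set its sign. The third, 1425922_a_at, overlapped between the groups with a change of 0.01. The gene as a mean of the 3 had a change of 0.66 (SE 0.99, adjusted p = 0.713), and of -0.43 without mock replicate 1 (adjusted p = 0.519).

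Max encodes the shared partner, which MYC needs to bind an E-box and with which the MXD proteins and MNT also pair. Its only probe set, 1423501_at, was bright by its 3 highest arrays, those of mock. It read -0.44, -0.80 and -1.02 on the ASXL1-MT arrays, and 0.76, 0.44 and 0.57 on the mock arrays. The groups did not overlap, and the gap between their means was larger than the spread within either (-0.76 ± 0.29 in ASXL1-MT and 0.59 ± 0.16 in mock, SD, n = 3 each). Max fell, with a log2 change of -1.35 (SE 0.20, adjusted p = 0.0207 by limma). The call was held without ASXL1-MT replicate 1 (adjusted p = 0.0373) and lost without any one of the other 5 arrays, with adjusted p from 0.0591 to 0.0781 and a change between -1.42 and -1.21.

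Mxd1, the repressor that marks maturing granulocytes, fell in ASXL1-MT marrow. Over its 3 probe sets it averaged -0.98, -1.20 and -2.61 on the ASXL1-MT arrays, against 0.94, 1.19 and 1.26 on the mock arrays. All ASXL1-MT arrays were far below all mock arrays, and ASXL1-MT replicate 3 was the lowest. Markers of mature neutrophils were lower as well, with list means of -1.14 to -0.84 in ASXL1-MT, against 0.62 to 0.79 in mock, and their part in this result was not tested. The log2 change was -2.73 (SE 0.46, adjusted p = 0.0261 by limma), at the 0.874 percentile of all genes. Of the 3 probe sets, 2 passed. Probe set 1455104_at was -1.08, -1.49 and -1.94 on the ASXL1-MT arrays, against 1.08, 1.33 and 1.33 on the mock arrays (change -2.75, SE 0.26, adjusted p = 0.0151). Probe set 1434830_at was -0.86, -0.74 and -1.33 on the ASXL1-MT arrays, against 0.74, 1.25 and 1.18 on the mock arrays (change -2.04, SE 0.25, adjusted p = 0.0197). Both separate the groups with little spread.

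The remaining Mxd1 probe set, 1422002_at, stood apart on 1 array. It was -0.99, -1.36 and -4.56 on the ASXL1-MT arrays, against 0.99, 1.00 and 1.28 on the mock arrays, with a change of -3.39 (SE 0.99, adjusted p = 0.105). Its groups did not overlap either, and its size rested on ASXL1-MT replicate 3, without which the change was -2.26 (adjusted p = 0.0636). With this probe set left out of the gene, an alternative chosen after its values were seen, the change of Mxd1 was -2.39 (adjusted p = 0.0105). Over all 3 probe sets the call of Mxd1 was held without ASXL1-MT replicate 1 (-3.03, adjusted p = 0.0463) and without replicate 3 (-2.22, adjusted p = 0.0421). It was lost without ASXL1-MT replicate 2 (adjusted p = 0.0735) or any mock array (adjusted p from 0.0710 to 0.0826).

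**Figure D2:**
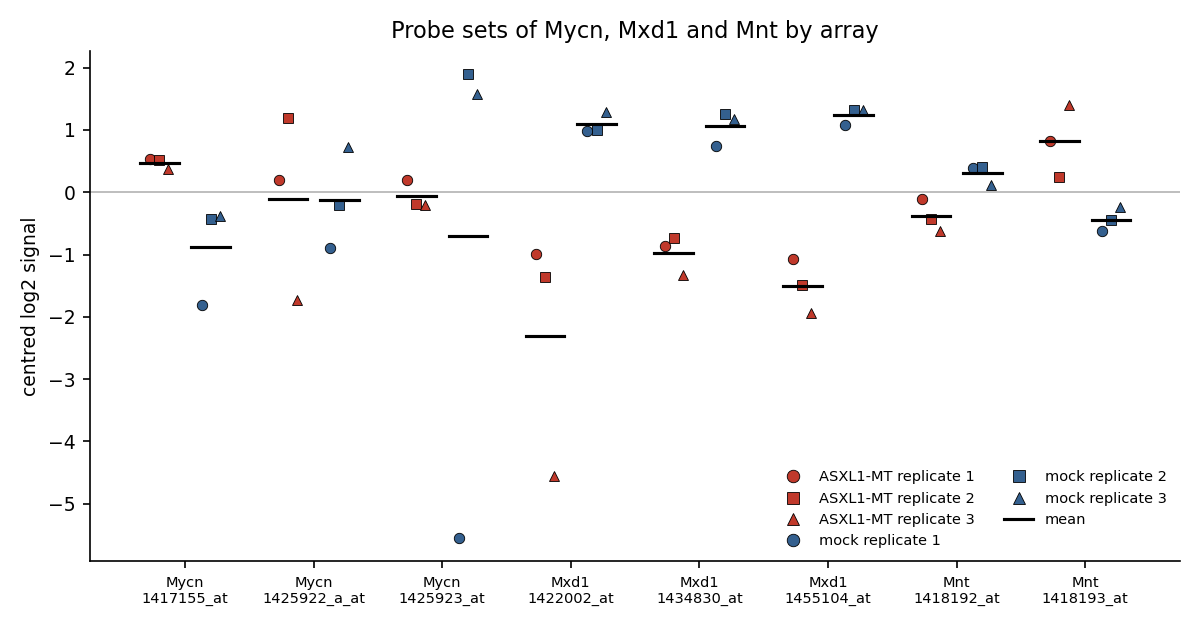
Centred log2 signal of the probe sets of Mycn, Mxd1 and Mnt, ASXL1-MT arrays in red to the left and mock arrays in blue to the right, with bars at the group means of 3 arrays. Single arrays stand apart at -5.55 (Mycn 1425923_at, mock replicate 1) and -4.56 (Mxd1 1422002_at, ASXL1-MT replicate 3), and the Mnt probe sets go opposite ways.

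Mxd3 encodes the member of the MXD family that is made in dividing cells, around S phase. It was the only MXD gene of the 9 that passed as higher. The gene mean was 0.37, 0.49 and 0.58 on the ASXL1-MT arrays, against -0.64, -0.49 and -0.41 on the mock arrays. Both groups were tight (SD 0.10 and 0.11, n = 3 each) and did not overlap. The log2 change of 1.00 (SE 0.14) had the smallest adjusted p among the 9 genes, 0.0184 by limma. All 3 probe sets separated the groups in the same direction, at 1.33 for 1448878_at (adjusted p = 0.0218), 0.84 for 1422970_at (adjusted p = 0.0744) and 0.82 for 1438847_at (adjusted p = 0.0814). With an array left out, the gene's change ran only from 0.93 to 1.05. The call was held without ASXL1-MT replicate 1 (adjusted p = 0.0448) and lost without any one of the others, with adjusted p from 0.0517 to 0.0800.

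The promoters of the 2 MXD genes that changed, in opposite directions, hold no E-box in the windows searched. They share another feature, many copies of the GC box GGGCGG, which SP factors bind. Counted on both strands and with overlaps, there were 6 in the Mxd1 window and 8 in the Mxd3 window, and 35.7% of all windows hold at least 1. GC content was 76.7% for Mxd1 and 71.0% for Mxd3. How many other windows hold as many copies, or have a like GC content, was not counted, so the feature is not shown to be unusual. The 250 bases before each start are shown on the gene's strand, with GC boxes in capitals, runs of capitals over 6 bases being overlapping or adjoining copies.
Mxd1, chr6:86669160-86669409, minus strand: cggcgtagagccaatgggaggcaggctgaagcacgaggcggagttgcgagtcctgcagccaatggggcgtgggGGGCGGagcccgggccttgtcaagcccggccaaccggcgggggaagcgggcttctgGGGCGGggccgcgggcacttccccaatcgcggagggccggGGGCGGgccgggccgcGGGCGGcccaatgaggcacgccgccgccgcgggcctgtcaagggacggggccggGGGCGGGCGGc
Mxd3, chr13:55329732-55329981, minus strand: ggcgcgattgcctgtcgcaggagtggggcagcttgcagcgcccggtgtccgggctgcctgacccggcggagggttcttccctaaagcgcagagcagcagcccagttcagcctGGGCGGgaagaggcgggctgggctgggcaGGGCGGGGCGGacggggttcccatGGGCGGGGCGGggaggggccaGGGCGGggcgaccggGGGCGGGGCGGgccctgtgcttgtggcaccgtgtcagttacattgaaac
The same motif thus stood in the promoter of a gene that fell and of a gene that rose. Among the members that did not pass, it occurred 4 times in each of 2 Mxi1 windows and 1 time in the other. It occurred 4 times in the Mnt window, 2 times in that of Mycn and 1 time in that of Mxd4, and was not found in that of Mlx. In the window of Max, which passed as lower, it was not found either, and Myc had no window.

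Mxi1, a repressor of the MXD family that also limits MYC activity, had 2 bright probe sets, both of which lay lower without passing. The gene was -0.14, -0.31 and -0.54 on the ASXL1-MT arrays, against 0.46, 0.11 and 0.11 on the mock arrays. The groups did not overlap, with a change of -0.56 (SE 0.18, adjusted p = 0.115). When bright probe sets were fitted alone, a setting in which 43.6% of genes passed, the gene passed (adjusted p = 0.0318). Neither probe set did (adjusted p = 0.0619 for 1425732_a_at and 0.0579 for 1450376_at).

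Mlx, the partner of the glucose-sensing factors, showed a smaller difference of the same kind. It was -0.16, -0.06 and -0.23 on the ASXL1-MT arrays, against 0.09, 0.18 and 0.33 on the mock arrays. The groups did not overlap, and the change was -0.35 (SE 0.14, adjusted p = 0.168). Its 2 probe sets, both bright, had changes of -0.29 and -0.42. On bright probe sets alone Mlx also passed (adjusted p = 0.0353), where 43.6% of genes did. Neither of its probe sets passed there (adjusted p = 0.0701 for 1418437_a_at and 0.0789 for 1425930_a_at).

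Mnt encodes the repressor that is present in most cell types and competes with MYC for MAX in cycling cells. Its 2 probe sets went opposite ways. The bright one, 1418192_at, was -0.11, -0.43 and -0.62 on the ASXL1-MT arrays, against 0.39, 0.40 and 0.11 on the mock arrays (change -0.69, adjusted p = 0.102). The other, 1418193_at, was 0.83, 0.24 and 1.40 on the ASXL1-MT arrays, against -0.62, -0.45 and -0.24 on the mock arrays (change 1.26, adjusted p = 0.0820). Each separated the groups fully. The difference between them within an array was 0.94, 0.68 and 2.02 on the ASXL1-MT arrays, against -1.01, -0.85 and -0.36 on the mock arrays, which follows from the opposite directions. An exact permutation test of this difference gave p = 0.1. That is the smallest p that 3 against 3 arrays allow, so the test could not fall under 0.05. The gene mean, with a change of 0.29 (adjusted p = 0.358), stands for neither, and no direction is given for Mnt. The bright probe set passed in the fit of bright probe sets alone (adjusted p = 0.0227), where 39.2% of probe sets did.

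Mxd4, a repressor of the family expressed in many differentiating tissues, showed the smallest difference. Its gene mean was 0.03, 0.06 and -0.19 on the ASXL1-MT arrays, and -0.03, 0.00 and -0.15 on the mock arrays, with a change of 0.02 (SE 0.14, adjusted p = 0.934). The groups overlapped. Its 4 probe sets had changes of -0.25, -0.05, 0.17 and 0.22, none of which passed. The sign of the gene's change turned with another scaling of the arrays, as to -0.06 with array medians set equal.

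**Figure D3:**
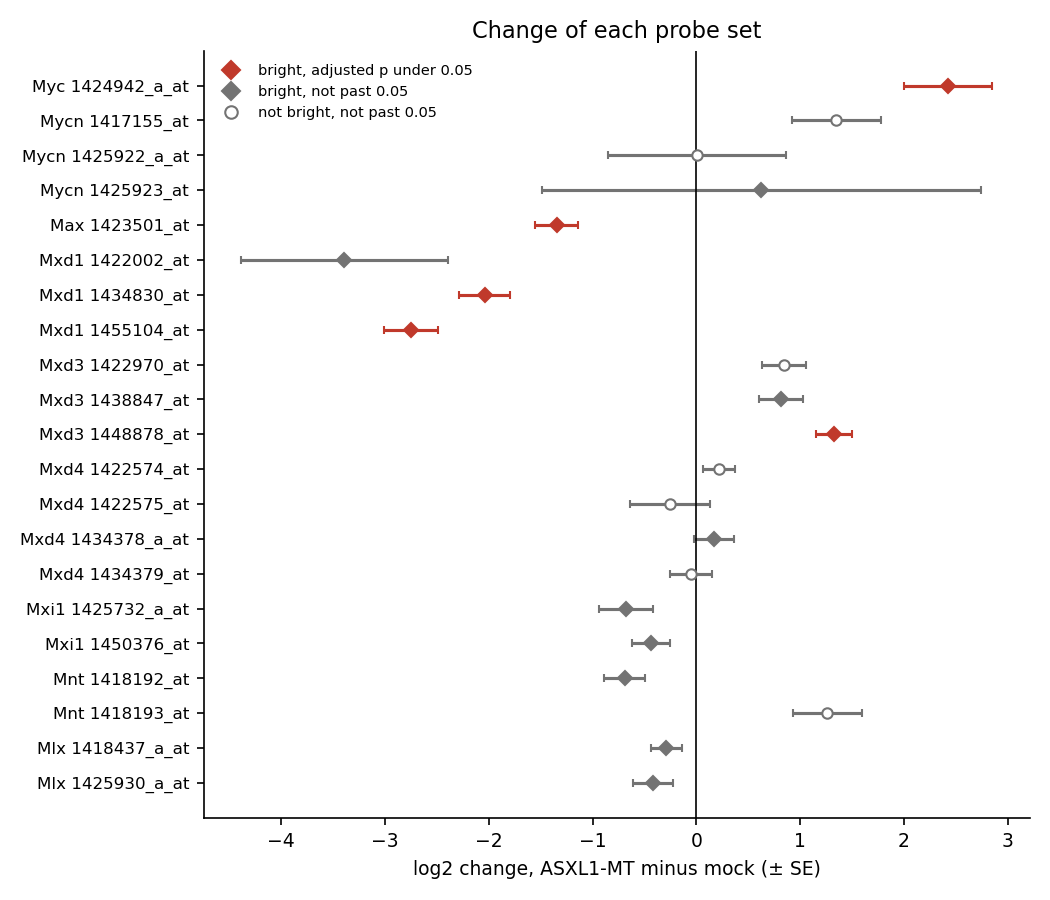
Log2 change of each of the 21 probe sets, ASXL1-MT minus mock, with bars of 1 SE. Diamonds are bright probe sets and open circles the others, and red marks the 5 with adjusted p under 0.05, for Myc (2.43), Mxd3 (1.33), Max (-1.35) and Mxd1 (-2.75 and -2.04).

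Myc and Mxd1 stood on opposite sides of 0 on every array. Within an array, Myc minus Mxd1 was 1.82, 2.13 and 3.56 on the ASXL1-MT arrays, against -3.35, -2.49 and -2.10 on the mock arrays. These differences of centred values compare arrays, and show neither the amounts of the 2 transcripts nor their order. Mxd3 minus Mxd1 was 1.35, 1.69 and 3.19 on the ASXL1-MT arrays, against -1.57, -1.68 and -1.68 on the mock arrays. Mxd1 minus Max was -0.53, -0.39 and -1.59 on the ASXL1-MT arrays, against 0.18, 0.75 and 0.69 on the mock arrays, since Mxd1 was lower by more than its partner. All of these follow from the changes above and were not tested.

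Genes with the most similar values were sought by the root mean square difference over the 6 arrays. Closest to Myc were Gsta4 (0.19), the MHC class II gene H2-Ab1 (0.23) and Ptpdc1 (0.26). Closest to Max were Ovgp1, Tut7 and the scramblase Plscr1 (0.11 to 0.13). Closest to Mxd1 were an immunoglobulin kappa variable gene, Fnbp1l and 4930556M19Rik (0.20 to 0.29), all 3 of which also had their lowest value on ASXL1-MT replicate 3. Closest to Mxd3 were Dsel, Rwdd4a and Nde1 (0.05). Each has a change much like that of its member. This, the shared lowest array and passing the threshold largely follow from the choice by similar values on these same arrays. Of these 12 only the immunoglobulin gene did not pass (adjusted p = 0.0533 by limma).

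Genes that MYC is known to switch on were examined as a list of 44, of which 41 were measured. Of these, 5 rose, 0 fell and 36 did not pass, and over all genes 6.63% passed as higher. Ccnd2, which encodes a D-type cyclin, was 0.57, 0.44 and 0.68 on the ASXL1-MT arrays, against -1.06, -0.47 and -0.61 on the mock arrays (change 1.27, SE 0.20, adjusted p = 0.0227), and all 7 of its probe sets were bright. Nop16 and Nme1, a nucleolar protein and a nucleoside diphosphate kinase, both rose by 1.93-fold. The other 2 that passed were Cdk4, the kinase partner of D-type cyclins (0.76), and the E-box binding factor Tfap4 (0.67), here with log2 changes.

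The list as a whole had a median change of 0.49, against 0.11 over all genes, and 37 of its 41 genes had a change above 0, as had 10304 of all 18193. With no adjustment, 22 had p under 0.05 as higher and 1 as lower, which 18.1% and 10.9% of all genes also had. The 1 lower gene was Ldha, lactate dehydrogenase A, named after its value was seen (change -0.52, adjusted p = 0.0540). With array medians set equal it passed as lower (-0.60, adjusted p = 0.0400), and 3 of the list rose, Nme1 and Tfap4 no longer among them. Nme1 rested on 1 of 2 probe sets, with a change of 1.62 for 1435277_x_at and 0.27 for 1424110_a_at. Nop16 likewise had 1.30 for 1451414_at and 0.60 for 1424620_at. Beside this list, 5 of 9 stem and progenitor markers rose and 1 fell (median change 1.44), and 2 of 11 cell cycle markers rose (median change 0.33). The shares over all genes were 6.63% as higher and 4.75% as lower.

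Genes that MYC is known to repress showed the opposite median. Of 10, 2 fell and 0 rose, with a median of -0.70, and over all genes 4.75% passed as lower. Thbs1, which encodes a matrix protein that restrains vessel growth, was -1.17, -3.41 and -4.17 on the ASXL1-MT arrays, against 1.17, 1.41 and 1.53 on the mock arrays (change -4.29, SE 0.79, adjusted p = 0.0310). Gadd45a, a stress-response gene that slows the cell cycle, was -0.69, -2.28 and -1.97 on the ASXL1-MT arrays, against 0.69, 1.15 and 1.36 on the mock arrays (change -2.72, SE 0.47, adjusted p = 0.0264). With an array left out, both calls were held only without ASXL1-MT replicate 1 (adjusted p = 0.0193 and 0.0268). For both genes ASXL1-MT replicate 1 was the closest of its group to the mock arrays. Thbs1 is also a platelet gene, and 4 of 6 megakaryocyte markers fell in these samples, with means of -0.53, -1.16 and -1.51 on the ASXL1-MT arrays, against 0.36, 1.38 and 1.40 on the mock arrays. Their part in the Thbs1 result was not tested.

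**Figure D4:**
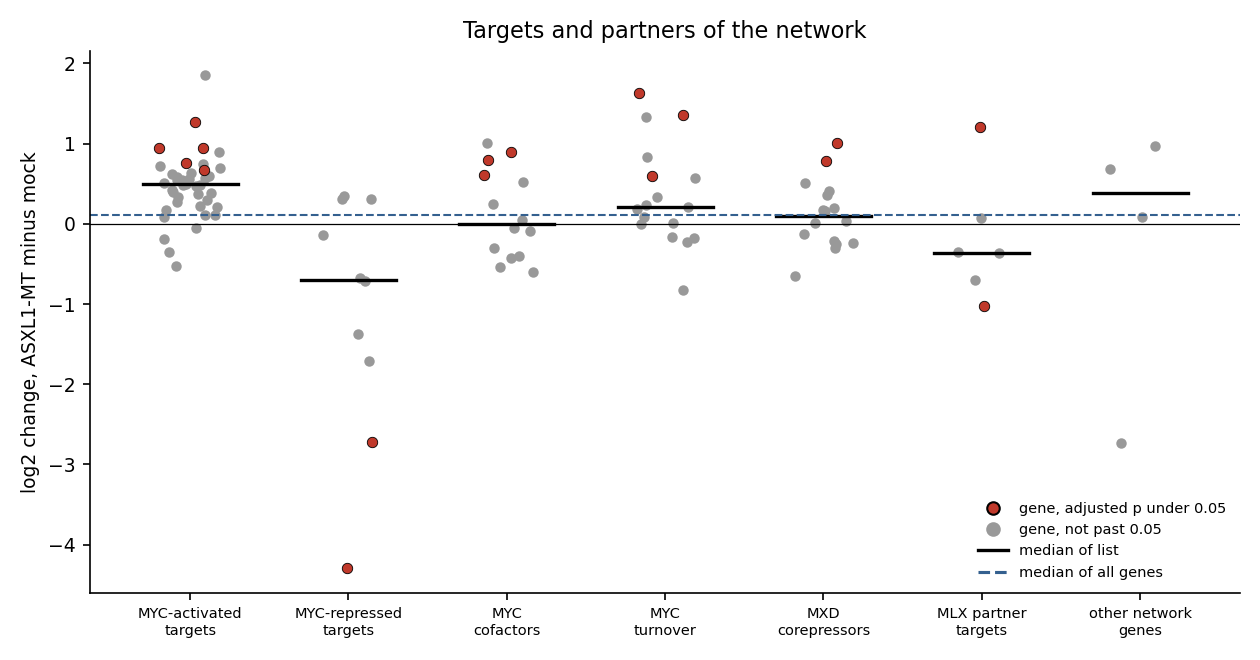
Log2 change, ASXL1-MT minus mock, of each measured gene in 7 lists of network targets and partners, with a black bar at the median of the list and a dashed line at the median of all genes (0.11). Red points passed at an adjusted p under 0.05. The list of MYC-activated targets has its median at 0.49 and the list of MYC-repressed targets at -0.70.

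Cofactors and regulators of the network had medians nearer to that of all genes. Among 14 measured MYC cofactors 3 rose and 0 fell, with a median close to 0, and over all genes 6.63% passed as higher and 4.75% as lower. These were the acetyltransferase Kat2a at 1.85-fold (adjusted p = 0.0387), the ATPase Ruvbl1 at 1.74-fold (adjusted p = 0.0250) and the remodelling factor subunit Bptf at 1.53-fold (adjusted p = 0.0456). Of the Bptf probe sets only 1439102_at, which was not bright, passed (change 1.10, adjusted p = 0.0231 by limma). The bright ones had changes of 0.31 and 0.57 and did not pass. Among 17 genes of MYC protein turnover and stability 3 rose and 0 fell, against the same shares, with a median of 0.21. Skp2, a ubiquitin ligase subunit that acts on MYC and on the cell cycle inhibitor p27, was 0.44, 1.05 and 1.09 on the ASXL1-MT arrays, against -1.20, -0.59 and -0.52 on the mock arrays (3.09-fold, adjusted p = 0.0276). The kinase Pim2, reported to stabilise MYC, was higher by 2.55-fold (adjusted p = 0.0368), and the deubiquitinase Usp37 by 1.51-fold (adjusted p = 0.0499). Pim2 has only 1 probe set, which was not bright. Usp37 had changes of 0.89 for 1434242_at, which passed, and 0.31 for 1438212_at, which did not.

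Among 16 genes of the SIN3 and histone deacetylase corepressor, through which MXD proteins repress, 2 rose and 0 fell, against 6.63% and 4.75% of all genes, with a median of 0.10. These were Brms1l at 2.01-fold (adjusted p = 0.0193) and Hdac2 at 1.72-fold (adjusted p = 0.0408). Among 6 targets of MLX and its glucose-sensing partners 1 rose and 1 fell, with the same shares over all genes. Fasn, fatty acid synthase, was higher by 2.31-fold (adjusted p = 0.0243), and Pfkfb3, which drives glycolysis, was lower by 2.03-fold (adjusted p = 0.0387). Neither probe set of Pfkfb3 passed by limma. The bright one, 1416432_at, had a change of -0.67 (adjusted p = 0.0603), and 1456676_a_at, not bright, had -1.37 (adjusted p = 0.0832). Over the 7 lists 17 of 108 genes passed, against 11.4% of all genes, and each of these calls was lost in at least 5 of the 6 fits that leave out an array, with the direction kept in all 6.

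Of the 4 further network genes, Mycl, Mga, Mlxip and Mlxipl, 0 passed by limma, and 2 were higher at an unadjusted p under 0.05. Mga encodes a large MAX partner found in a variant Polycomb complex. It had a change of 0.68 (adjusted p = 0.0841), and both of its bright probe sets passed alone, at 0.93 for 1431232_a_at (adjusted p = 0.0398) and 1.21 for 1434746_at (adjusted p = 0.0261). Mycl, the third MYC relative, had a change of 0.98 (adjusted p = 0.0718) that came from 1 of its 3 probe sets. That one, 1434777_at, had a change of 3.35 (adjusted p = 0.0145), against -0.41 and -0.01 for the others, and none of the 3 was bright.

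Marker lists of several cell types, though not of all, also differed between the groups. Of 9 measured mature neutrophil markers 6 fell and 0 rose, with list means of -0.85, -0.84 and -1.14 on the ASXL1-MT arrays, against 0.62, 0.73 and 0.79 on the mock arrays. Mxd1, this list and the megakaryocyte markers given above were all lowest on ASXL1-MT replicate 3. Of 9 stem and progenitor markers 5 rose and 1 fell, with means of 0.44, 0.44 and 0.68 on the ASXL1-MT arrays, against -0.72, -0.62 and -0.80 on the mock arrays. Of 8 dendritic markers 7 rose and 0 fell, with means from 0.91 to 1.01 in ASXL1-MT, against -1.96 to -0.92 in mock. Most of those that rose, Ciita, H2-Aa, H2-Ab1, H2-Eb1 and Cd74, are genes of MHC class II presentation, and Siglech and Bst2 rose too. Itgax did not pass (change 0.10, adjusted p = 0.839 by limma). Mock replicate 1 was the lowest array for this list, as it was for Myc. It was also lowest for T and NK cell markers, at -1.48 against 0.32 and 0.10 on the other mock arrays. The same array was lowest for the mean of all genes, at -0.13 against -0.06 and -0.11 on the other mock arrays. So it was for the MYC-activated targets and for cell cycle and erythroid markers, but not for stem and progenitor or monocyte markers. Of 11 cell cycle markers 2 rose and 0 fell, with means of 0.09, 0.15 and 0.12 on the ASXL1-MT arrays, against -0.29, -0.19 and -0.03 on the mock arrays. Further, 0 of 7 monocyte markers passed by limma (1 higher at an unadjusted p under 0.05), while 1 of 6 erythroid, 1 of 7 B cell and 2 of 7 T and NK cell markers rose and 0 fell. Over all genes 6.63% passed as higher and 4.75% as lower, and nothing is read from 1 or 2 calls in lists this short. The part of these markers in the changes of Myc, Max, Mxd1 and Mxd3, and in those of the target and partner lists, was not tested.

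The labelled cell type could be checked only through brightness, since centring removed the levels. Of the measured markers, 8 of 9 for mature neutrophils and 7 of 7 for monocytes had a bright probe set. So had 7 of 9 for stem and progenitor cells and 6 of 8 for dendritic cells. The counts were 2 of 6 for erythroid cells, 3 of 7 for B cells and 2 of 7 for T and NK cells. Megakaryocyte markers, of a lineage that was not removed, had 2 of 6 as well. Over all genes 9454 of 18193 had one.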

How the data were processed

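The authors measured RNA of 6 samples on Affymetrix mouse arrays, and signals were made with MAS5, per the submitters' processing notes. The deposited table holds log2 values, read as such from the values, since log base, centring and scaling between arrays are not stated. Row medians were 0 to within 5e-07. All 425 probe sets with tied arrays had the tie at their lowest value, and high values were taken as strong signal. Array medians lay between 0.021 and 0.050 in ASXL1-MT and between -0.053 and -0.028 in mock. Levels are unknown, and the number of arrays limits the precision.

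Of 45037 probe sets, 34945 had 1 symbol, 932 several and 9160 none here. A gene is the mean of its probe sets. limma 3.58.1 in R 4.3.3 (lmFit, eBayes, group as the only term) was fitted over all probe sets and all genes, with Benjamini-Hochberg adjustment and a threshold of 0.05, and tested on simulated data. Named were all members, per list the 3 largest changes that passed or the 2 smallest p where none did, and the 3 nearest genes per changed member. Members and lists were chosen with earlier results of these data known. Other genes named were chosen after their values were seen. Alternatives were 3 scalings, 2 variance models, bright probe sets alone, the probe set of smallest spread, a replicate block and leaving out each array. Offsets, and filters at a chosen signal level, need levels and were not run.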

Additional observations from a re-analysis of the deposited data

How the results depend on the processing

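The direction of Myc, Max, Mxd1 and Mxd3 was the same under all 8 settings and in each of 6 fits on 5 arrays, and each call was lost under 1 of the 8 settings, the replicate block. Same-numbered arrays did not deviate together (correlations of -0.0088, -0.0116 and -0.0090), and no array correlated best with its own number, so the numbers were not taken as pairs. With the replicate block 0 genes and 0 probe sets passed by limma, with adjusted p = 0.104 for Myc, 0.0985 for Max, 0.112 for Mxd1 and 0.104 for Mxd3. At an unadjusted p under 0.05 it gave 4568 of 18193 genes and 9874 of 45037 probe sets. Among them were 5 of 9 member genes, 12 of 21 member probe sets and 37 of 108 list genes. With bright probe sets alone 6765 probe sets, 4120 genes, 8 member probe sets, 7 member genes and 53 list genes passed, against 3646, 2072, 5, 4 and 17 as reported. In that setting 39.2% of all bright probe sets and 43.6% of all genes with one passed. Trend and robust settings gave 5816 probe sets and 29 list genes, and the probe set of smallest spread gave 3898 genes and 41 list genes. With an array left out, the counts ran from 66 to 1142 probe sets, from 192 to 1033 genes, from 0 to 3 member probe sets, from 0 to 3 member genes and from 0 to 9 list genes. At an unadjusted p under 0.05 those fits gave 4 to 5 member genes, 9 to 12 member probe sets and 36 to 48 list genes. Over all features they gave 4154 to 4857 of 18193 genes and 9076 to 10887 of 45037 probe sets. The cause of these moves was not tested, though each such fit has 1 array fewer.

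Higher calls were 58.3% of the genes called as deposited, 49.3% with equal array medians, 47.6% with quantile normalization and 46.6% with cyclic loess. Among reversals, Mxd4 was -0.058, -0.072 and -0.10 in these 3 scalings and ran from -0.023 to 0.10 over the fits on 5 arrays. Mycn 1425922_a_at was -0.074, -0.073 and -0.15 in the 3 scalings and ran from -0.65 to 0.82 over those fits. The Mnt gene was -0.69 on bright probe sets and on the probe set of smallest spread, and Mycl was -0.0089 on the second of these, since both settings take single probe sets. With an array left out, Mycn ran from -0.43 to 1.26, Mycn 1425923_at from -1.80 to 1.92, Mxd4 1422575_at from -0.49 to 0.15 and Mxd4 1434379_at from -0.22 to 0.081. Of the named list genes, Bptf and Usp37 lost their calls in all 3 scalings (adjusted p from 0.0651 to 0.0856), Nme1 and Tfap4 as well (from 0.0515 to 0.0617), and Kat2a, Hdac2 and Nop16 after cyclic loess (from 0.0537 to 0.0596). Thbs1 lost its call with an intensity trend (adjusted p = 0.0576) and Pfkfb3 with trend and robust settings (adjusted p = 0.0734). On the probe set of smallest spread, Skp2, Usp37, Nop16 and Nme1 did not pass (adjusted p from 0.0598 to 0.189).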
